A study of Mus musculus with 139 samples.

Results

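The genes described here encode the protein parts of the cytosolic ribosome. Members were the rows of the count table whose identifier belongs to a protein-coding mouse gene with a symbol made of Rpl or Rps, a number and at most a short suffix, together with Rplp0, Rplp1, Rplp2 and Rpsa. The rule took 83 of 55335 rows, 51 for the large subunit and 32 for the small subunit, and used names and no measured value. A further 6 rows have such a symbol but are not protein-coding and were left out. RNA had been sequenced from single hair cells of the cochlea of Mus musculus, taken at postnatal days 14 to 16. Inner hair cells (IHCs) drive the fibres of the auditory nerve, whereas outer hair cells (OHCs) amplify the vibration of the sensory epithelium. The labels assign 34 IHCs to the apex of the cochlear spiral, 34 to its middle and 19 to its base, with 21 apical, 23 middle and 8 basal OHCs, and they name no strain, sex, treatment or animal. Sample titles also carry a number whose meaning the labels do not state. It was at or below 100 in 81 cells, called here the lower series, and above 100 in 58 cells, the higher series.

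A ribosome has a large subunit, which joins amino acids, and a small subunit, which reads the mRNA, and each normally takes up its proteins in fixed proportions. Most mRNAs for these proteins start with a cytosine followed by an unbroken run of pyrimidines, the terminal oligopyrimidine or TOP motif, through which the kinase mTOR and the protein LARP1 control their translation and stability together. Hair cells last a lifetime without division and keep up a large synaptic and stereociliary protein content, for which they need ribosomes continuously.

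Annotated gene starts were searched for such a run. RefSeq promoter windows of GRCm38.p6, each of 300 bases (250 before the annotated start and 50 from it on), were at hand for 63 members in 75 windows. The sequences that follow run 5′ to 3′ along the gene, with 30 bases before the annotated start and 20 from it on. Capitals mark an unbroken run of C and T that covers the start base, counted where it had at least 5 bases. Rpl34 and Rps18 are shown because their levels went most closely with those of the other members from cell to cell, Rpl28 and Rps6 because later results turn on them, and Rps25 and Rpsa because they are abundant and have no such run at this annotated start. Of the 2 annotated starts of Rpl34 in the table, the one shown has a run of 20 bases and the other has none.
Rpl34: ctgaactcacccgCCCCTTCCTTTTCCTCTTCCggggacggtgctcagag
Rps18: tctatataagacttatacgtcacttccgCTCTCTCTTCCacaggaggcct
Rpl28: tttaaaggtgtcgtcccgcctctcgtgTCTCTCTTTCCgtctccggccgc
Rps6: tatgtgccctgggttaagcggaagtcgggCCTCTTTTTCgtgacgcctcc
Rps25: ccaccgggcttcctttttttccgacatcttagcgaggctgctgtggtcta
Rpsa: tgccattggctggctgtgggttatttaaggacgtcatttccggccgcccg
The windows lie at chr3:130730318-130730367 on the minus strand (Rpl34), chr17:33955646-33955695 on the minus strand (Rps18), chr7:4792935-4792984 on the plus strand (Rpl28), chr4:86857348-86857397 on the minus strand (Rps6), chr9:44407684-44407733 on the plus strand (Rps25) and chr9:120127736-120127785 on the plus strand (Rpsa).

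Such a run covered the start in 20 of the 75 member windows, or 26.7%, against 10.1% of all 32851 windows of 27025 genes in the same table. The start base was C in 29.3% of member windows and in 16.3% of all. On either strand of the 300 bases, CCGGAAG, letters bound by ETS and GABP factors, stood in 36% of member windows and 8.86% of all. AAGATGGC, the core bound by YY1, stood in 10.7% and 2.75%. CTTTCC, letters of a pyrimidine tract near the start, stood in 49.3% and 26.6%, and can overlap the run. A match describes letters in the window and does not show a site in use.

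Counts per cell ran from 71027 to 13576942, with a median of 3186040 in the lower and 7187430 in the higher series. Markers followed the labels at the level of groups: Otof, the synaptic calcium sensor of IHCs, stood at 3445 to 6506 CPM, counts scaled to a common library total, in the IHC groups and 0.199 to 213 in the OHC groups, and Ocm, the calcium buffer of OHCs, at 3294 to 5391 in the OHC groups and 1.30 to 298 in the IHC groups. In 8 cells (4 apical IHCs, 2 middle IHCs and 2 middle OHCs) the markers of the other type summed to more than those of the labelled type, and 1 basal OHC had no read of Otof, Slc17a8, Ocm or Slc26a5. Apical IHC cells 21 and 22 carry the same title number and were counted as separate cells, since the labels do not say whether they are repeat libraries. Their log2(CPM + 1) values had a Pearson correlation over genes of 0.21, next to a median of 0.41 over the other 135 pairs of lower-series apical IHCs. Cells of a group are not replicates and no label names an animal, so each group counted as 1 sample and no test between groups was made. Group levels below are CPM of the summed counts, scaled by TMM, a method that assumes most genes to be at equal levels. Cell levels are CPM of that cell's own total. Differences are log2 ratios of (CPM + 1), and intervals cover counting error only. Of 15004 genes with a symbol and at least 5 CPM in 1 or more groups, 79 were members, 48 of 51 for the large subunit and 31 of 32 for the small. TMM did not centre these 15004 genes: their median difference was −0.59 for OHCs minus IHCs and −0.72 for base minus apex of OHCs.

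Ribosomal protein mRNA made up a small share of each cell's counts. The share ran from 0.0310% to 7.48% over all cells, with a median of 0.759%. Summed over a group, it was 0.594% in apical IHCs (exact 95% binomial interval 0.593 to 0.595), 1.0% in middle IHCs (0.999 to 1.0) and 0.932% in basal IHCs (0.931 to 0.934). In OHCs it was 0.816% in the apex (0.814 to 0.818), 1.57% in the middle (1.57 to 1.57) and 3.37% in the base (3.36 to 3.38). The share was thus higher in OHCs than in IHCs in each of the 3 regions, and the basal OHCs were the highest of the 6 groups. Of the member counts of basal OHCs, 1 cell (cell 8) held 44.1%.

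The title-number series did not give the same order of groups. In the lower series the median cell had 0.606% in apical IHCs (lowest 0.171, highest 1.35), 0.484% in middle IHCs (0.0603 to 3.0) and 1.03% in basal IHCs (0.426 to 2.59). Among lower-series OHCs the median was 0.627% in the apex (0.0878 to 2.94), 0.419% in the middle (0.0310 to 2.59) and 3.01% in the base (1.21 to 7.48). In the higher series the medians were 0.494% (0.255 to 1.17), 1.32% (0.553 to 2.50) and 0.624% (0.247 to 1.10) from apex to base in IHCs. Higher-series OHCs had medians of 0.762% in the apex (0.197 to 1.51) and 2.21% in the middle (1.23 to 2.33), and the 2 basal OHCs stood at 0.765% and 2.23%. The middle was therefore the lowest region of both types by cell median in the lower series and the highest region of IHCs in the higher series. Ranges of neighbouring groups overlapped in each of these comparisons of cells within a type.

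**Figure D1:**
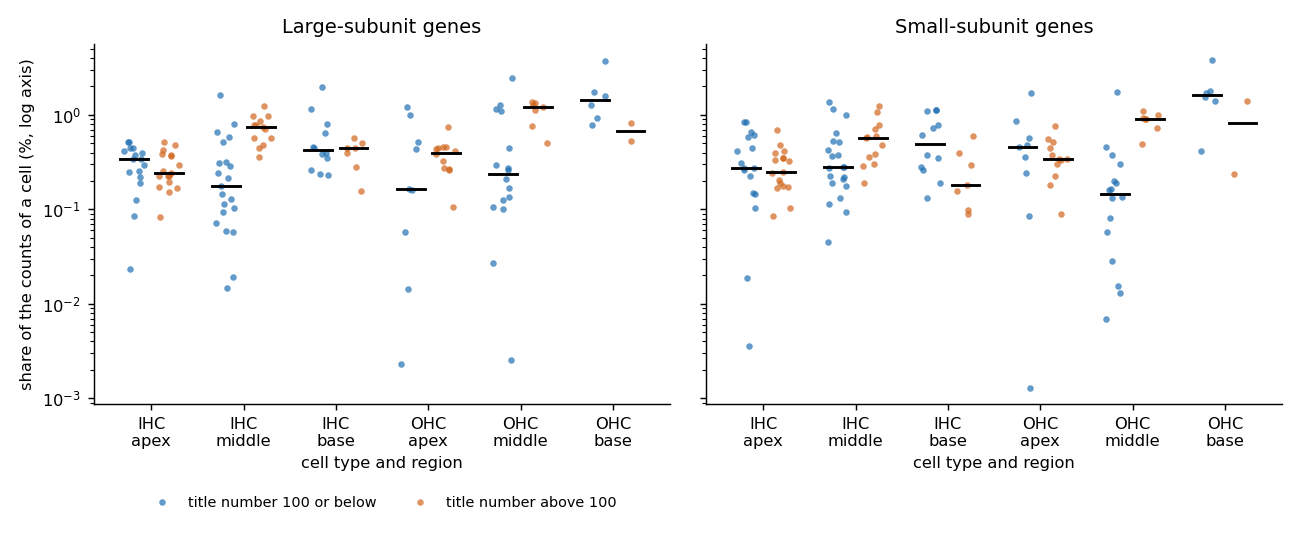
Share of a cell's counts (percent, log axis) in large-subunit genes (left) and small-subunit genes (right), 1 point per cell, by cell type and region, with bars at the median of each title-number series. Higher-series middle cells stand above lower-series middle cells in their medians, and the 6 lower-series basal OHCs hold 1.21% to 7.48% of their counts in both subunits together.

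The balance between the subunits differed in spread between the series. The counts of large-subunit genes divided by those of small-subunit genes had a median of 1.12 over all cells, 0.815 in the lower and 1.20 in the higher series. In the lower series the ratio lay between 0.5 and 2 in 41 of 81 cells (50.6%), with percentiles 10 and 90 at 0.205 and 5.99. It exceeded 10 in 7 of these cells and was under 0.1 in 4. In the higher series it lay between 0.5 and 2 in 52 of 58 cells (89.7%), with percentiles 10 and 90 at 0.727 and 1.78, and passed neither outer limit in any cell. The shares of the subunits went together across cells with a Spearman correlation of 0.43 in the lower series (81 cells) and 0.84 in the higher (58 cells), where points share depth and library.

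Single genes carried a larger part of the ribosomal protein counts in the lower series. The most counted member held a median of 33.7% of a cell's member counts in the lower series and 13.2% in the higher. The median number of members with at least 1 read was 45 of 83 in the lower and 68 of 83 in the higher series, over all cells 54 (3 to 80). These values move with depth, so cells were also thinned to 582635 counts, which kept 69 lower-series and 56 higher-series cells. Thinned, the medians were 31 and 58 members with reads, and the top member held 32.1% and 13.4%. The thinned ratio of large to small had percentiles 10 and 90 at 0.187 and 2.38 in the lower series and 0.750 and 1.64 in the higher. At equal depth, lower-series cells thus had reads from fewer members and a more uneven set of them. Numbers of all genes with reads were not compared at that depth. The lower number of members is therefore not shown to be particular to them. The labels do not say what the title number marks, so handling, animal and date cannot be told apart.

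**Figure D2:**
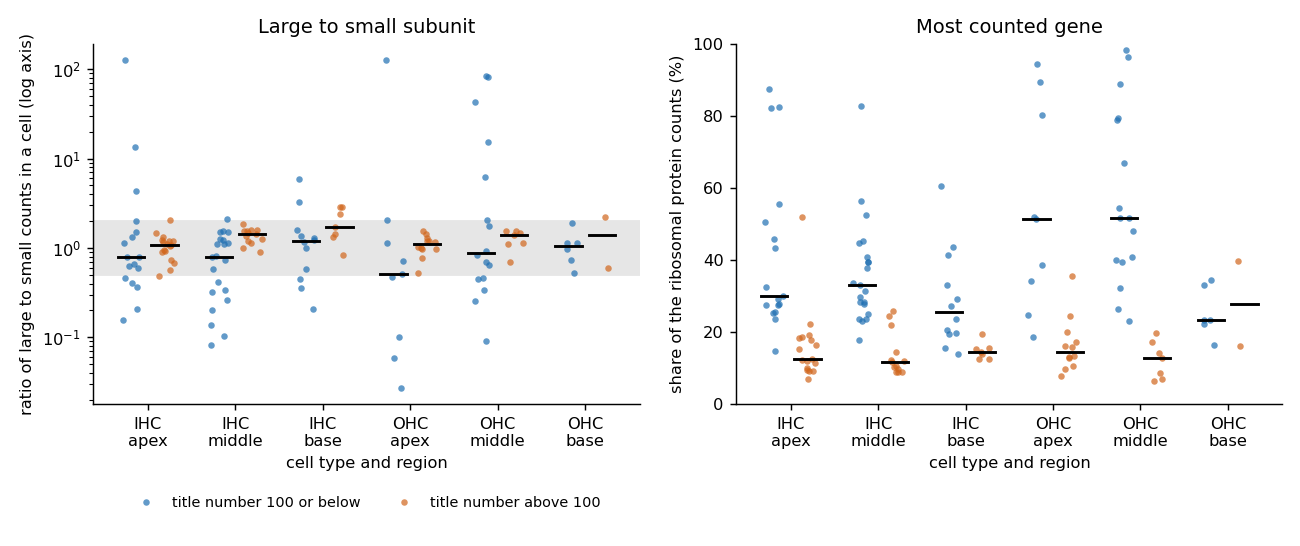
Ratio of large-subunit to small-subunit counts in each cell (left, log axis, grey band from 0.5 to 2) and the share of ribosomal protein counts held by the most counted member (right, percent), with bars at the series medians. Of the higher-series cells 52 of 58 fall in the band, against 41 of 81 lower-series cells.

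Rps25, a small-subunit protein that many viral internal ribosome entry sites need, was the most counted small-subunit gene in all 6 groups, with 25.6% to 42.5% of small-subunit counts. The gene spans chr9:44407139-44410427 on the plus strand (GRCm38). Its group level was 904 CPM in apical IHCs (exact Poisson interval 900 to 909), 1684 in middle IHCs (1679 to 1689) and 1480.3 in basal IHCs (1474 to 1487), and 1169.5 in apical (1163 to 1176), 1365 in middle (1358 to 1371) and 10909 in basal OHCs (10863 to 10954). Cell levels of Rps25 ran from 0 to 6070, with a median of 360 CPM, in apical IHCs, from 0 to 6439 (median 1359) in middle IHCs and from 0.719 to 8288 (median 511) in basal IHCs. In OHCs they ran from 0 to 11374 (median 1140) in the apex, from 0 to 17323 (median 848) in the middle and from 0 to 16727 (median 5872) in the base. The ranges of all 6 groups overlapped, and the basal OHC group had the highest median. Rps25 was the most counted member in 42 of 81 lower-series cells and 19 of 58 higher-series cells, and its cell median was 1550 CPM in the lower and 479 in the higher series.

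From cell to cell Rps25 went with the other members weakly, at a Spearman correlation of 0.19 over all cells, the lowest of the members that passed 5 CPM. Its annotated exons share 668 bases with Trappc4 and Ccdc84, genes on the opposite strand, and whether reads were counted by strand is not given. Group levels of Trappc4 were 0.0498 to 13.7 CPM and those of Ccdc84 0.0498 to 40.3 CPM, both lowest in basal OHCs, where Rps25 was highest. The correlations of Rps25 with Trappc4 and Ccdc84 over cells were 0.09 and 0.01. These neighbours were looked at after the values of Rps25 were seen.

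The other leading genes varied by group. Within the large subunit the most counted gene was Rpl7a in apical IHCs (8.03% of large-subunit counts), Rplp1 in middle IHCs (9.31%) and Rpl28 in basal IHCs (11.3%). In OHCs it was Rplp1 in the apex (11.4%) and Rpl4, a protein of the peptide exit tunnel, in the middle (14.4%). The 5 leading genes held 36.3% to 51.9% of large-subunit counts and 52.6% to 76.1% of small-subunit counts. Counts scale with gene length, so levels of different genes were compared per kilobase of exon. As the mean of the 6 groups, Rplp1 had 1170 CPM per kilobase, Rps25 1085 and Rps15 729.6. Rps10, a protein of the small subunit's head, was at or below 2.61 CPM in all 6 groups, with reads in 34 cells. Its annotated exons share 475 bases with RPS10-NUDT3, a coding gene on the same strand, and 189 bases with Gm15420 on the opposite strand. How reads in shared bases were counted is not given, and their part in this low level was not tested.

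**Figure D3:**
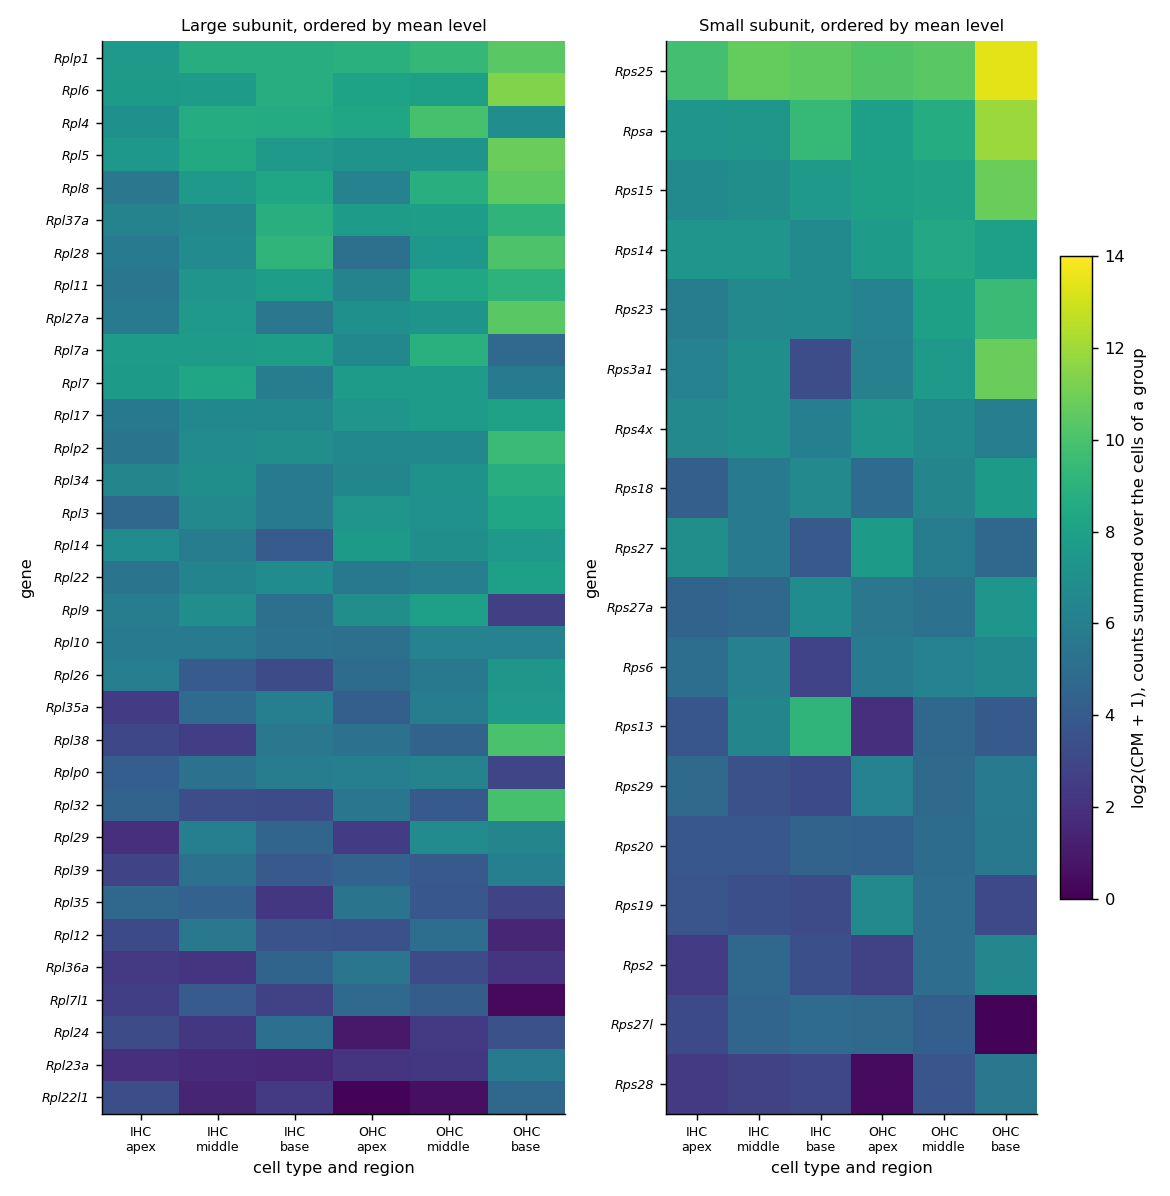
Group levels of ribosomal protein genes that passed 5 CPM and are named in the text, by cell type and region on a log scale of (CPM + 1), large and small subunit apart. Rps25 has 904 to 10909 CPM and stands at the top of the small subunit, while Rplp1 leads the large subunit with 187 to 1344 CPM.

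Both subunits stood above the body of other genes in OHCs relative to IHCs when counts of a group were summed. The mean log2 difference over the 3 regions had a median of 0.63 over large-subunit and 0.91 over small-subunit genes, against −0.59 over the 15004 genes. Of large-subunit genes 18 of 48 stood 2-fold or more above IHCs in OHCs and 2 below by as much, and of small-subunit genes 11 of 31 were higher and 3 lower, where 17.3% of all genes were higher and 39.2% lower. By region the large-subunit medians were 0.60 in apical, 0.64 in middle and 1.57 in basal cells, and the small-subunit medians 0.55, 0.59 and 1.24, against −0.02, −0.07 and −0.89 for all genes. OHCs were above IHCs, by any amount, in each of the 3 regions for 17 large-subunit genes (35.4%) and 13 small-subunit genes (41.9%), where 8.5% of all genes met the same condition. OHCs were below IHCs in each region for 0 large-subunit genes and 1 small-subunit gene, Rps13, where 22.5% of all genes were.

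Members to name in each comparison were the 3 highest and 3 lowest of each subunit among those with reads in at least 50% of the cells of the higher group. Rpl32 had the highest large-subunit value between the types, at 2.81, and its pooled level was 20.6, 8.86 and 8.35 CPM in IHCs and 43.7, 14.7 and 982 CPM in OHCs from apex to base. Its cells ranged from 0 to 137 CPM in IHCs of the apex and from 0 to 6835 in OHCs of the base, where 1 cell (cell 7) held 68.5% of its counts. In summed counts Rpl32 kept its direction in both series (2.0 in the lower and 2.18 in the higher), but its cell medians did not follow. From apex to base, lower-series medians were 0, 0 and 0.918 CPM in OHCs and 0, 0.115 and 0.495 in IHCs. Higher-series medians were 0 in the apex and 13.3 in the middle of OHCs, against 4.22 and 13.8 in IHCs. The 2 higher-series basal OHCs stood at 0 and 420 CPM. In summed counts Rps29 kept its direction too, at 1.78 pooled, 1.59 and 2.33. Rps15, a protein at the head of the small subunit (1.94 pooled), stood at −1.35 in the lower and 2.34 in the higher series. Rpl27a was at 1.93 and turned to −1.19 without basal OHC cell 8, and Rps15 dropped to 0.88 without basal OHC cell 3.

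Fewer members were lower in OHCs. Rpl24, which forms a bridge between the subunits, had the lowest large-subunit value among the named genes (−1.29; −1.73 and −2.43 by series), followed by Rpl7a (−1.01) and Rpl12 (−0.78). Rpl7a was at −0.37 without basal IHC cell 12 and Rpl12 at 0.11 without basal IHC cell 7. Rps13 had the lowest small-subunit value (−2.94; −4.71 and −1.40), with pooled levels of 12.4, 86.5 and 582 CPM in IHCs and 2.78, 24.6 and 14.8 CPM in OHCs. It was lower in OHCs in each region and in both series, and 48.8% of its basal IHC counts came from 1 cell (cell 15), without which the difference between the types was −2.65.

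The difference between the types was not of 1 direction in the series. Among lower-series cells the medians were −0.66 for the large and −0.56 for the small subunit (all genes −0.22), with 8 and 5 members 2-fold or more higher in OHCs and 13 and 13 lower, where 9.84% of all genes were higher and 34.9% lower. Among higher-series cells they were 0.40 and 0.87 (all genes −0.84), with 14 and 14 members higher and 8 and 4 lower, where 16.7% and 46.4% of all genes were. By region, the lower-series large-subunit medians were −0.44 in apical, −0.63 in middle and 0.76 in basal cells, and the small-subunit medians −0.80, −1.64 and 0.98. The higher-series values were 0.80, 0.65 and −0.13 for the large and 0.45, 0.83 and 2.03 for the small subunit. By these medians over genes, lower-series OHCs thus exceeded IHCs in the base alone. The reverse order held there for the large subunit in the higher series, where the base has 2 OHCs. Shares of summed counts gave another order. In the lower series, both subunits together held 0.976% in apical OHCs against 0.671% in apical IHCs, and 0.509% against 0.544% in the middle. In the higher-series base, the large subunit held 0.813% in OHCs against 0.387% in IHCs.

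Fewer than 50% of the members kept their direction between the types in both series. OHCs were above IHCs in both series for 8 large-subunit genes (Rpl23a, Rpl32, Rpl34, Rpl35a, Rpl37a, Rpl38, Rpl8 and Rplp1) and 8 small-subunit genes (Rps14, Rps19, Rps2, Rps20, Rps23, Rps25, Rps29 and Rps3a1), or 16.7% and 25.8%, where 13.5% of all genes were. They were below IHCs in both series for 11 and 10 members, where 47.3% of all genes were. Over the 79 members, the differences in the lower series and those in the higher series, which come from different cells, had a Spearman correlation of 0.20 between the types, with 37 of the same sign.

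**Figure D4:**
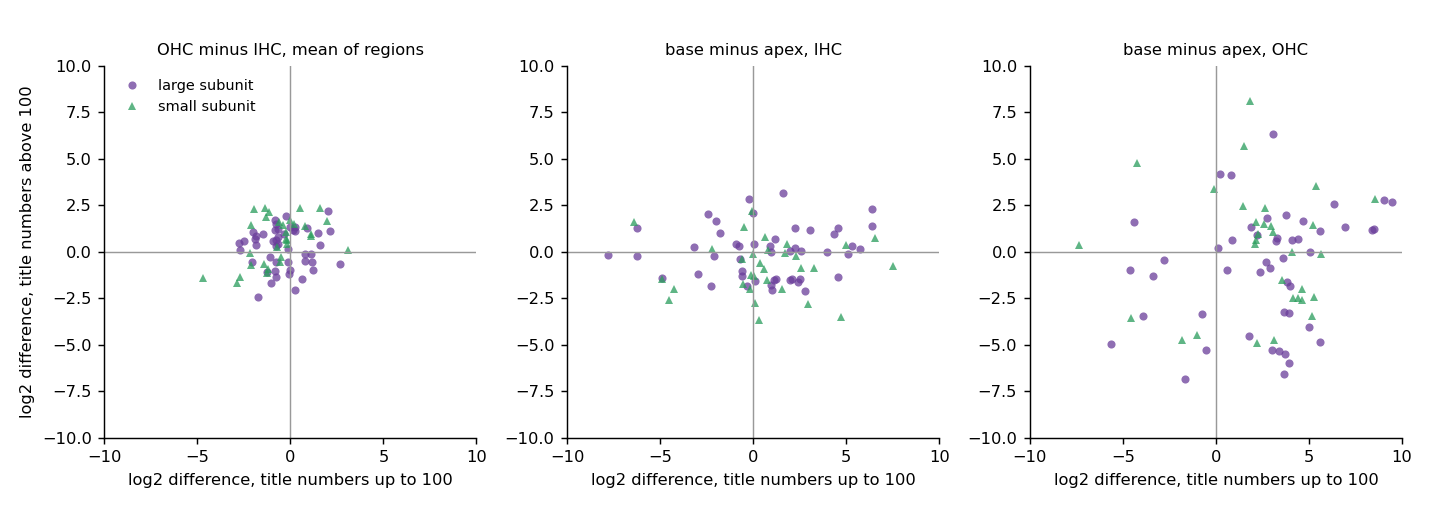
Log2 difference of each ribosomal protein gene among cells with title numbers up to 100 (x axis) and above 100 (y axis), for OHC minus IHC and for base minus apex in each type, 1 point per gene. Points fill all 4 quadrants in each panel, with 37, 38 and 46 of the 79 genes of the same sign in both series.

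Along the spiral of IHCs, the large-subunit genes were higher in the base than in the apex by a median of 0.82 and the small-subunit genes by 0.22, against −0.02 for all genes. Of 48 large-subunit genes 23 were at least 2-fold higher and 7 lower, and of 31 small-subunit genes 8 were higher and 8 lower, where 26.5% of all genes were higher and 31.5% lower. The small-subunit share was near the background in both directions. Its median was −0.20 without basal IHC cell 11 and 0.56 without apical IHC cell 21. In the lower series the medians were 0.98 and 0.35, with 24 and 11 members higher and 11 and 5 lower (18.9% and 25.8% of all genes). In the higher series they were 0.00 and −0.88, with 12 and 3 members higher and 17 and 13 lower (26.2% and 31.9% of all genes). The base was above the apex in both series for 15 large-subunit and 5 small-subunit genes, where 21.2% of all genes were, and below it for 10 and 8, where 26.9% of all genes were.

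Among named genes of basal against apical IHCs, Rpl35a stood at 3.66 (6.38 in the lower and 2.31 in the higher series), Rpl28 at 3.38 (4.32 and 0.94) and Rpl29 at 2.67 (1.57 and 3.15). Rpl28 had 54.1 CPM in apical, 108.4 in middle and 572 in basal IHCs, with cells from 0 to 705 in the apex (median 16.3) and from 0 to 4940 in the base (median 89.3). The 2 ranges overlapped, and without basal IHC cell 13 the difference was 2.90. Rpl35a was at 1.93 without basal IHC cell 18. Rpl14 (−2.78), Rpl26 (−2.76) and Rpl35 (−2.38) were the lowest of the large subunit, and Rpl26 was at −1.13 without apical IHC cell 21. In the lower and higher series, Rpl14 was at −7.78 and −0.20, Rpl26 at −6.25 and −0.23, and Rpl35 at −4.89 and −1.43. In the small subunit Rps13 stood at 5.44 and turned from 7.50 in the lower to −0.76 in the higher series, and Rps27a from 4.73 to −3.50. Rps13 was at 4.57 without basal IHC cell 15. Rps27 was lower in the base pooled (−3.01) and in both series (−4.51 and −2.61).

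Members were mostly higher in basal than in apical OHCs, and so were summed markers of blood and immune cells, connective tissue, and glia and neurons. Base minus apex had a median of 1.95 over large-subunit and 1.97 over small-subunit genes, against −0.72 over all genes. Of large-subunit genes 32 of 48 were at least 2-fold higher in the base and 12 lower, and of small-subunit genes 19 of 31 were higher and 5 lower, where 17.4% of all genes were higher and 47.6% lower. Without cell 8 the medians were 1.5 and 1.17. Among the members that share no exonic base with another gene, an alternative added after the data were seen, they were 1.67 and 0.16. In the lower series (6 basal and 9 apical cells) the medians were 3.25 and 2.63 with 0.00 for all genes, 34 and 25 members were higher and 7 and 5 lower (19.3% and 14.7% of all genes). In the higher series (2 basal and 12 apical cells) they were −0.39 and 0.40 with −1.64 for all genes, and 15 and 13 members were higher and 20 and 12 lower (12.2% and 54.1% of all genes).

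Summed markers of 3 other cell classes were higher in the basal OHCs than in any other group, and those of supporting cells were not. All 11 blood and immune genes had counts there and summed to 19576 CPM, against 405 to 3424 in the other groups, and by cell from 3043 to 30359 with a median of 6713. The 7 connective tissue genes summed to 23076 CPM (1572 to 6887 in the other groups) and the 9 glial and neuronal genes to 13076 CPM (1842 to 4300). The 12 supporting cell genes summed to 443 CPM in basal OHCs, 409 in apical OHCs and 963 to 2741 in the other 4 groups. The 8 general hair cell markers summed to 1352 CPM in basal and 6332 in apical OHCs, with cell medians of 400.2 and 4458. The 9 OHC markers summed to 6530 CPM in basal and 9887 in apical OHCs, with cell medians of 406 and 9280. Slc26a5, the OHC motor protein, stood at 34.3 CPM in basal and 697 in apical OHCs, and Kcna10, an IHC marker, at 0 in basal OHCs. Over all cells, the share of ribosomal protein counts had a Spearman correlation of 0.54 with the glial and neuronal sum, 0.40 with the blood and immune sum, 0.28 with the connective tissue sum, 0.08 with the supporting cell sum and −0.11 with the hair cell sum. Over the 131 cells without basal OHCs these were 0.48, 0.32, 0.20, 0.15 and −0.03, and all points share depth and library. The part of other cells' RNA in the basal OHC values was not tested.

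Cell values show how uneven the basal OHC group was. In cells 1 to 8, of which cells 1 and 2 belong to the higher series, Rps25 stood at 0, 2821, 9302, 103.1, 6993, 4751, 7720.4 and 16727 CPM. Rpsa, which is also known as the laminin receptor, stood at 0, 2310.2, 82.8, 3.54, 182, 271, 986 and 11587 CPM in the same cells. Rps25 was above 1000 CPM in 6 of the 8 cells and Rpsa in 2 of them.

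Among named genes of basal against apical OHCs, Rpl28 was at 4.92 (8.51 in the lower and 1.20 in the higher series) and at 2.39 without basal cell 8. Rpl38, needed for translation of Hox mRNAs in the mouse embryo, was at 4.74 (3.64 and −3.26) and at 1.42 without basal cell 4. Rpl22l1 was at 4.53 and at 3.04 without basal cell 6. Rps28 stood at 5.23 (1.81 in the lower and 8.08 in the higher series) and at 3.73 without basal cell 2. Rps3a1 was at 4.71 and turned from 4.61 in the lower to −2.61 in the higher series, with 3.53 without basal cell 4. Rpsa was at 3.99 (8.55 and 2.84) and at 1.30 without basal cell 8. Rpl7l1 (−4.42), Rpl9 (−4.31) and Rpl36a (−3.40) were lower in the base, pooled and in both series. Rps27 (−2.96) and Rps4x (−1.27) were lower when pooled but not in both series. Rps27 turned from 2.18 in the lower to −4.88 in the higher series, and Rps4x from 4.61 to −2.01. Without apical cells 11, 18 and 13 in turn, Rpl7l1 was at −3.32, Rpl9 at −3.29 and Rpl36a at −2.77. The base was above the apex in both series for 21 large-subunit genes (43.8%) and 14 small-subunit genes (45.2%), where 9.16% of all genes were, and below it for 8 and 3, where 35.7% of all genes were.

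The middle region also differed between the series. In the higher series middle cells were above apical cells by a median of 0.82 for the large and 0.72 for the small subunit in IHCs, and by 0.58 and 0.75 in OHCs, with 0.00 for all genes in both types. In IHCs 19 and 11 members were at least 2-fold higher and 4 and 3 lower, where 28.5% and 26.3% of all genes were, and in OHCs 19 and 13 were higher and 6 and 2 lower, where 32.7% and 31.2% of all genes were. In the lower series the same medians were −0.25 and −0.13 in IHCs and −0.36 and −0.90 in OHCs. The order of middle and apex by these medians was therefore opposite in the series, in both types and both subunits. No values of all genes are given beside the lower-series medians, so whether those differ from all genes is not shown.

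Higher-series cells were compared with lower-series cells within each of the 6 groups. The mean difference over the groups had a median of −0.41 for the large and 0.42 for the small subunit, against 0.57 for all genes. Of large-subunit genes 14 were at least 2-fold higher in the higher series and 15 lower, and of small-subunit genes 13 were higher and 8 lower, where 34.2% of all genes were higher and 15% lower. With plain totals in place of TMM the large-subunit median was 1.13, next to 1.24 for all genes, and with DESeq2 size factors the small-subunit median was −0.44, next to 0.15 for all genes, so these signs depend on the scaling. By group the large-subunit median was −0.29 in apical, 0.90 in middle and −2.22 in basal IHCs, and 0.19, 1.88 and −2.76 in OHCs. The small-subunit medians were 0.57, 0.71 and −2.04 in IHCs and 1.16, 3.54 and −1.95 in OHCs. Both subunits were thus above the lower series in the middle and below it in the base, in both cell types.

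Some genes differed between the series in each of the 6 groups. In all 6, 0 of 48 large-subunit and 2 of 31 small-subunit genes (Rps14 and Rps6) were above the lower series, where 3.41% of all genes were. Below it in all 6 were 3 large-subunit genes (6.25%) and 2 small-subunit genes (6.45%), Rpl23a, Rpl27a, Rpl6 and Rps25 among them, where 3.67% of all genes were. These counts are near those of all genes. Rps14, whose loss underlies the anaemia of the 5q- syndrome, had a cell median of 0.293 CPM in the lower series (0 to 259, reads in 46 of 81 cells) and 240 CPM in the higher (0 to 1945, reads in 53 of 58). Rps6, the ribosomal target of kinases that act below mTOR, had cell medians of 0 (reads in 24 of 81 cells) and 20.2 CPM (reads in 42 of 58). Rpl4 was at 0.629 (0 to 2504) and 392 (0 to 3871) and Rplp1 at 9.22 (0 to 6973) and 256 (0 to 2397). The ranges of the series overlapped for each of these genes.

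Rpl6 showed how sums and cell medians can part. Its mean log2 difference of pooled levels was −4.22, the lowest of the named large-subunit genes, yet its cell median was 12.7 CPM in the lower and 97.6 CPM in the higher series. The highest cell had 14096 CPM in the lower and 2111 CPM in the higher series. Rps25 was lower in the higher series by both measures, at −3.02 pooled. When the median of the cells was used in place of sums for each member, the higher series lay above the lower by medians of 2.82 for the large and 3.02 for the small subunit.

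**Figure D5:**
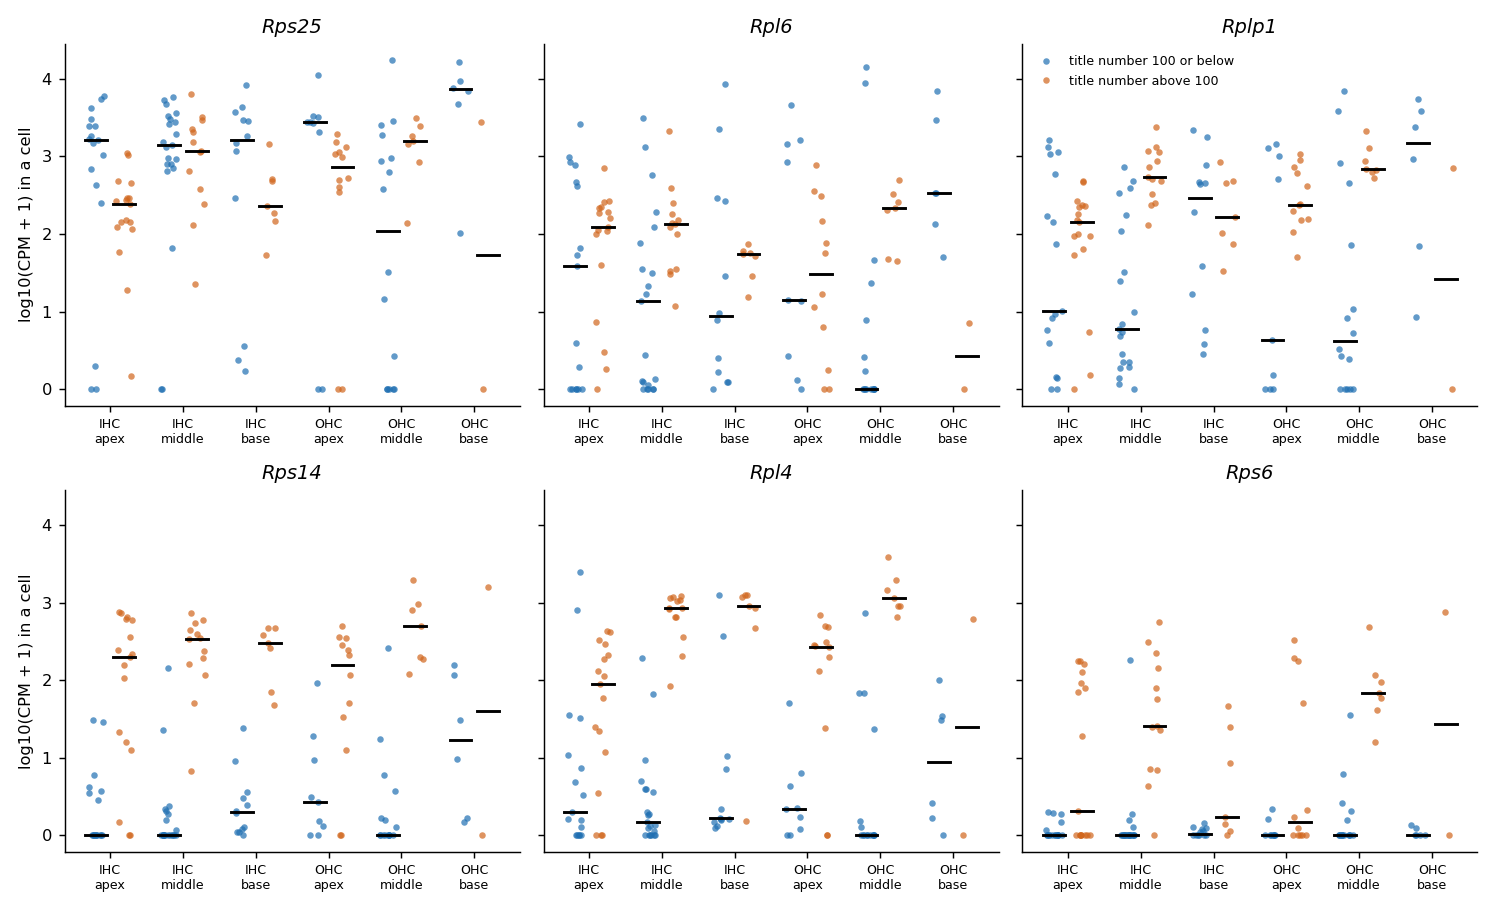
Level of 6 ribosomal protein genes in each cell, as log10 of (CPM + 1), by cell type and region, with bars at the median of each title-number series. Rps14, Rpl4 and Rps6 have cell medians of 0.293, 0.629 and 0 CPM at lower and 240, 392 and 20.2 CPM at higher title numbers, while Rps25 has 1550 and 479 CPM.

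From cell to cell the members were loosely linked in both series. Over the 64 members with reads in at least 70 cells, the median Spearman correlation of the 2016 pairs was 0.21 in the lower and 0.30 in the higher series. Over all cells it was 0.34 for pairs within the large subunit, 0.38 within the small, 0.35 between the subunits and 0.24 for pairs of a member with another gene of like breadth of detection. The members closest to the rest were Rpl34 (0.77), Rps18 (0.75) and Rpl17 (0.74), of which the promoters of Rpl34 and Rps18 are printed above.

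The acidic stalk, which recruits translation factors to the large subunit, holds Rplp0 and copies of Rplp1 and Rplp2. Rplp1 had 187, 423 and 427 CPM in IHCs and 480.3, 642 and 1344 CPM in OHCs from apex to base. Rplp2 had 41.5, 106.4 and 117.9 CPM in IHCs and 90.2, 92.5 and 732 CPM in OHCs, of which basal cell 8 had 2209 CPM. Rplp0 had 17.3, 35.7 and 56.8 CPM in IHCs and 64.1, 75.6 and 6.47 CPM in OHCs. When cells were pooled, all 3 were lower in the apex of IHCs than in the other regions of IHCs. Of the 6 groups, basal OHCs had the lowest level of Rplp0 and the highest levels of Rplp1 and Rplp2. Base minus apex of IHCs in the lower and higher series was 5.75 and 0.14 for Rplp0, 0.91 and 0.34 for Rplp1, and 2.10 and −1.48 for Rplp2. In OHCs it was 0.61 and −0.99 for Rplp0, 0.87 and 0.61 for Rplp1, and 3.30 and 0.74 for Rplp2.

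Rpl5 and Rpl11 enter the large subunit with its smallest RNA and, when free, bind Mdm2 and stabilise p53. Rpl5 had 176, 366 and 179 CPM in IHCs and 152, 148 and 1808 CPM in OHCs. Rpl11 had 44.2, 159 and 222 CPM in IHCs and 75.3, 323 and 524 CPM in OHCs. Both were highest in basal OHCs, while in the middle Rpl11 and not Rpl5 was higher in OHCs than in IHCs.

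In the small subunit, Rps6 had 32.5, 67.5 and 6.05 CPM in IHCs and 51, 72.3 and 92.8 CPM in OHCs. Rps19, the gene most often mutated in Diamond-Blackfan anaemia, had 12, 9.65 and 8.32 CPM in IHCs and 96.8, 31.1 and 7.57 CPM in OHCs. Rps27a, made as a fusion with ubiquitin, had 21, 24.2 and 110.6 CPM in IHCs and 46.2, 37.9 and 165 CPM in OHCs. Rpsa had 160.3, 171 and 664 CPM in IHCs and 234, 411 and 3739.6 CPM in OHCs. When cells were pooled, Rps19 was thus highest in the apex of OHCs, whereas Rps27a and Rpsa were highest in the base of each type. Base minus apex of OHCs for Rps19 was −7.34 in the lower and 0.37 in the higher series. In basal OHCs, cell 3 had 366 CPM of Rps27a and the next cell 10.9, and base minus apex of OHCs turned from 1.82 to −2.66 without cell 3. In the higher series Rps27a was lower in the base of both types (−3.50 in IHCs and −2.44 in OHCs), and Rpsa was higher in both (0.41 and 2.84).

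The muscle and testis paralogues stayed low, while Rpl22l1, Rpl7l1 and Rps27l reached 24.9, 26.8 and 28.5 CPM. Rpl3l, the muscle form of Rpl3, had 2 to 9 counts per group (up to 0.448 CPM), where Rpl3 had 25.9 to 310.4 CPM. Rpl10l and Rpl39l, the testis forms, had 0 to 3 and 0 to 2 counts per group, at or under the floor of 3 counts, where Rpl10 had 35.4 to 73.7 CPM and Rpl39 6.40 to 65 CPM. Rpl22l1 had 0.119 to 24.9 CPM against 40.2 to 241 for Rpl22, Rpl7l1 0.299 to 26.8 against 56.3 to 312 for Rpl7. Rps27l, a p53 target, had 0.0996 to 28.5 CPM, and in basal IHCs it stood above Rps27 per kilobase of exon (34.9 against 13.3 CPM per kilobase).

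Near-identical copies limit these levels. A locus named as a numbered pseudogene of the member (-ps) is annotated for 60 of the 83 members, and the 300 such rows held counts equal to 6.72% to 14.2% of the member counts of a group, most in basal OHCs. Exonic bases are shared with another gene by 38 members, 19 of them with a gene on the opposite strand, and 30 members contain a small nucleolar RNA gene. How reads with several matching places were counted is not given, so levels of these members are uncertain.

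Other genes of translation, outside the naming rule, are set beside the members here. The elongation factors (7 tested) had a median of 0.05 between the types, −0.07 between base and apex of IHCs and 1.71 in OHCs. The other known TOP mRNA genes (10 tested) were at 0.60 between the types, with 2 at least 2-fold higher and 0 lower (17.3% and 39.2% of all genes). Between base and apex they were at −0.03 in IHCs, with 4 higher and 3 lower (26.5% and 31.5% of all genes), and at 1.86 in OHCs, with 7 higher and 2 lower (17.4% and 47.6% of all genes). Among them Fau, which encodes a small-subunit protein as a ubiquitin-like fusion, stood at 3.91. Initiation factors (29 tested) were at 0.03, −0.23 and −0.74 in the 3 comparisons, ribosome assembly factors (35 tested) at −0.09, −0.71 and −1.69, and RNA polymerase I genes (11 tested) at −0.60, 0.24 and −2.84. Mitochondrial ribosomal protein genes (71 tested) were at −0.59, 0.15 and −0.97, next to −0.59, −0.02 and −0.72 for all genes. TOR pathway and MYC genes (12 tested) stood at −0.82, 0.12 and −0.43, and ribosome rescue genes (9 tested) at −1.37, 0.65 and −2.59.

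The genes outside the list whose levels went most closely with the mean of the members over all cells were Rpl17-ps10 (Spearman 0.77), Gm5559 (0.77), Ctsd (0.76), Atp5a1 (0.76), Gm12033 (0.75), Gapdh (0.75), Pebp1 (0.75), Fbxo2 (0.75), Ap2m1 (0.75) and Wbp2 (0.74). Rpl17-ps10 is named as a ribosomal protein pseudogene, Atp5a1 is a subunit of ATP synthase, Gapdh is an enzyme of glycolysis and Ctsd is a lysosomal protease. Within the series the values were lower, from 0.38 (Gapdh) to 0.61 (Rpl17-ps10) in the lower series and from 0.57 (Pebp1) to 0.72 (Gm5559) in the higher.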

How the data were processed

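Each sample was 1 cell, and per the labels' protocols the sequencer was an Illumina HiSeq 2500. The authors deposited a single table of raw counts per gene, with its columns matched to samples by title, and 0 columns of values stayed unused. The submitters' processing notes name Trimmomatic, HISAT2, featureCounts, Subread 1.4.6 and GRCm38 (mm10), with no roles. For strandedness, multi-mapping reads and molecular identifiers, nothing is given in the sources used here. Identifiers were looked up in GENCODE M21. Of the counts, 0.00885% lay in 181 rows with no symbol, which entered totals and no comparison.

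Counts were summed per group, or per group and title-number series, and scaled by TMM (edgeR 4.0.16, R 4.3.3). Because no label names an animal, no test between groups was run. Genes with at least 5 CPM in 1 or more groups and a symbol were compared on the log2(CPM + 1) scale, on which differences of low genes are understated, and called at 2-fold or more. Relations between groups are given as medians and counts beside those of all genes, and correlations without p. Intervals are exact at 95%. Length is the union of annotated exons, retained introns included. Promoter windows are RefSeq's (GRCm38.p6). Python 3.11.15 was used for the remaining steps. The TMM-scaled log2 difference between the types was checked in R on simulated group sums, and the steps in Python were not.

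Named genes were the 3 highest and 3 lowest of each subunit per comparison with reads in at least 50% of the cells of the higher group. Some genes that this rule takes are not reported here. Members with a known role could be named as well, and the sequences, the neighbours of Rps25 and the single cells shown were chosen after values were seen. The members and the lists were chosen with earlier results of these data known. Alternatives were equal weight per cell, cell medians, DESeq2 1.42.0 size factors, plain totals, each series alone, thinned cells, cells or members left out, and no filter on low members.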

Additional observations from a re-analysis of the deposited data

Results flagged for a closer look

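In the 8 basal OHCs, 13 values were examined for a cell far from the others, by the gap to its nearest neighbour relative to the whole range. The limit for the gap was 0.526, which about 1 in 20 sets of 8 values from a normal distribution pass, and 9 of the 13 passed it. Values of single cells are skewed and the 13 come from the same cells, so that rate does not hold here. Cell 8 stood apart in the large-subunit share (3.70%, next 1.75%), the small-subunit share (3.78%, next 1.78%), Rplp2 (2209 CPM, next 221) and Rpsa (11587 CPM, next 2310.2). Cell 2 stood apart in Rplp0 (44.3 CPM, next 1.52) and Rps6 (749 CPM, next 0.352). Cell 6 did in Rpl5 (4952 CPM, next 2227), cell 1 in Rps19 (313 CPM, next 38.3) and cell 3 in Rps27a (366 CPM, next 10.9).

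The medians of the members lay on opposite sides of 0 in the title-number series in 4 comparisons, and the difference between the series was not tested. The large subunit stood at −0.66 in the lower and 0.40 in the higher series between OHCs and IHCs, and at 3.25 and −0.39 between base and apex of OHCs. The small subunit stood at −0.56 and 0.87 between OHCs and IHCs, and at 0.35 and −0.88 between base and apex of IHCs.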

How the results depend on the processing

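No test was run, so directions and sizes of medians over members were compared. In the order OHC minus IHC, base minus apex of IHCs, base minus apex of OHCs and higher minus lower title numbers, the main medians were 0.63, 0.82, 1.95 and −0.41 for the large and 0.91, 0.22, 1.97 and 0.42 for the small subunit. Other scalings shifted all genes too: the median of all genes between base and apex of OHCs was −0.72 with TMM, −0.38 with DESeq2 size factors and −0.95 with plain totals. With DESeq2 size factors the medians were 1.13, 0.95, 2.72 and −1.29 (large) and 1.42, 0.35, 2.74 and −0.44 (small). With plain totals they were 0.55, 0.71, 1.48 and 1.13, and 0.81, 0.11, 1.49 and 1.63.

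Without the deepest cell of each group they were 0.39, 0.72, 1.70 and −0.68, and 0.69, 0.13, 1.53 and −0.36. Without the cell with most ribosomal protein counts in each group, chosen after seeing the data, they were 0.54, 0.87, 1.51 and −0.64, and 0.59, −0.10, 1.21 and −0.39. With thinned cells the large subunit stood at 0.68, 0.71, 2.46 and −0.24, and the small at 0.13 between base and apex of IHCs and 0.63 between the series. Without cells against their label, the large subunit stood at 0.59 between the types, 0.95 in IHCs and −0.034 between the series, and the small at 0.86 between the types, 2.04 in OHCs and 0.66 between the series.

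With equal weight per cell, the large subunit was at 0.52 between the types and 2.69 in OHCs, and the small at 0.79, 0.38, 2.32 and 0.74. With cell medians the large subunit was at −0.053, 0.13, 0.85 and 2.82, and the small at 0.13 between the types, 1.09 in OHCs and 3.02 between the series. In the lower series the 3 comparisons within a series gave −0.66, 0.98 and 3.25, and −0.56, 0.35 and 2.63, and in the higher series 0.40, 0.0047 and −0.39, and 0.87, −0.88 and 0.40. Without the filter on low members, the large subunit was at 1.80 in OHCs and −0.30 between the series, and the small at 0.84, 0.14, 1.89 and 0.27.

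Members with no -ps locus gave 0.94, 1.48 and 2.78 for the large subunit, and 0.62 between the types, 1.29 in OHCs and 1.10 between the series for the small. Members that share no exonic base with another gene, a choice made after seeing the data, gave 0.94, 1.17, 1.67 and 0.49 for the large, and −0.48 in IHCs, 0.16 in OHCs and 0.81 between the series for the small. The median share of counts per cell was 0.759%, and 0.639% and 0.786% in the lower and higher series and 0.824% without mitochondrial genes and CT010467.1 in the totals. The median ratio of large to small was 1.12, and 0.815 and 1.20 by series. The causes of these shifts and reversals were not tested. No paired analysis was possible because cells of different groups share no label-given pairing, each group counted as 1 sample and no result came from a test. Depth limits low members: single cells had reads from 3 to 80 of the 83 genes.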
